A study of Mus musculus with 24 samples.

Results

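Extracellular vesicles (EVs) shed by LPS-treated BV2 microglia were compared directly with EVs shed by TGF-β-treated BV2 microglia, by sequencing the small RNA that each contained. The comparison took 6 of the 24 libraries of the series: the 3 LPS EV libraries and the 3 TGF-β EV libraries, whose columns were joined by the name of the microRNA precursor. The study also holds EVs from IL-10-treated and untreated cells, and the cells that shed all 4 kinds of EV. BV2 is an immortalised mouse microglial line, so every group is 1 line in culture. LPS was given at 100 ng/mL and TGF-β at 50 ng/mL, each for 72 h. The EV controls and IL-10 EVs entered the statistical fit but not the contrast. Whether the 3 libraries per group stem from separate cultures is not given by the labels, and p-values here reflect only how these libraries vary, which may be technical.

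LPS, a component of the outer membrane of Gram-negative bacteria, is sensed by TLR4 and drives NF-κB, which switches on inflammatory genes and a small set of microRNAs that damp the same pathway. TGF-β signals through its own receptor kinases to SMAD transcription factors and maintains the resting state of microglia. Cells release part of their small RNA in EVs. This RNA includes mature microRNAs, which silence mRNAs through a short seed at their 5′ end, and fragments of longer RNAs such as ribosomal RNA, snoRNA and mRNA. The deposited tables count reads per precursor and do not separate the mature arms. A read from any RNA that carries the same letters can therefore be counted under a precursor's name.

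The sequences below are the mature forms listed by RefSeq (GRCm38.p6) for precursors on which the comparison turned, each 5′ to 3′, with the seed (bases 2 to 8) in capitals. The precursors of the first set were higher in LPS EVs, and their seeds all differ. The miR-664 arms are shown because both lie within the snoRNA Snora36b.
miR-2137: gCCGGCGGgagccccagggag
miR-6238: uUAUUAGUcaguggaggaaaug
miR-5126: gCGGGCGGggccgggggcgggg
miR-664-5p: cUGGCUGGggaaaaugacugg
miR-664-3p: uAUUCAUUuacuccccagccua
miR-1903: cCUUCUUCuucuuccugagaca

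The precursors of these were lower in LPS EVs than in TGF-β EVs, and where 2 arms are shown the counts do not say which was read. The miR-692 sequence is carried by 3 precursor copies, and miR-6236 and miR-6240 made up most of the counts.
miR-692: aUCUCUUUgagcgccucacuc
miR-682: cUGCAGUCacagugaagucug
miR-203-5p: aGUGGUUCuugacaguucaaca
miR-203-3p: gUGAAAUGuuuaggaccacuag
miR-6345: uAGCACUGcucagggugaacu
miR-5108: gUAGAGCAcuggaugguuu
miR-1896: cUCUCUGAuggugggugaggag
miR-6240: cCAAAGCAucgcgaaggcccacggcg
miR-6236: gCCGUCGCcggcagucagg

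On GRCm38, miR-2137 lies on the plus strand at chrX:72992113-72992133, in an intron of Zfp185, and 85.7% of its bases are G or C. The plus-strand miR-5126, at chr1:84695890-84695911, lies opposite an untranslated exon of Dner and consists of G and C alone. The miR-664 arms, at chr1:185242975-185242995 and chr1:185243012-185243033, fall in Snora36b inside an intron of Rab3gap2. The miR-6238 sequence, at chr7:53891796-53891817 on the minus strand, overlaps no annotated gene. An exact copy of the miR-692 letters occurs in transcripts of 7 annotated genes, including Ftl1, which encodes the ferritin light chain. The miR-682 letters also occur in 7 genes, several of them pseudogenes, and the listed locus lies in the processed pseudogene Gm4149. Reads from such transcripts and reads from a microRNA cannot be told apart in the counts. Of the 71 precursors that could be tested, 65 were matched by name to a mature sequence from RefSeq. The match left out part of the RefSeq entries, so a missing match does not show that RefSeq holds none. No sequence is given for mir-320, mir-3960, mir-5099, mir-378a, mir-669c and mir-1949, nor for mir-466d, which was not among the 71.

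The LPS EV libraries held 23943, 28727 and 25867 counts, and the TGF-β EV libraries held 16728, 15838 and 15071 counts. All 3 LPS EV libraries were deeper, by a ratio of means of 1.65. From these bulk libraries, fewer vesicles of a kind and less RNA per vesicle cannot be told apart. Outside the contrast, IL-10 EV library 1 stood apart from the other 2 of its group, with a TMM factor of 1.48 against 0.685 and 0.548, and without it 20 of the 22 calls below were made. Of the 1187 listed precursors, 624 were at 0 in all 6 libraries, 71 passed the filter on low counts and were tested, and 492 had counts but were not tested. The untested ones held 3.57% of the LPS EV counts and 2.44% of the TGF-β EV counts. A level of 3 counts, used here as the floor, equals 0.0104% to 0.0125% of an LPS EV library and 0.0179% to 0.0199% of a TGF-β EV library, which covers counting error only. Checked against 6 microglial and myeloid markers, both kinds of EV had reads for mir-142a, mir-21a, mir-146a and mir-342. The myeloid precursors mir-223 and mir-511 were at 0 in all 6 EV libraries. mir-223 had 23 to 33 counts in LPS cells and 15 to 28 in TGF-β cells. Those cell libraries were far deeper, with 185400 to 233757 counts for LPS and 283222 to 323300 for TGF-β. The 0 in EVs therefore does not show that mir-223 was left out of them. Summed over the markers, LPS EVs had 93 to 216 counts (0.388% to 0.835%) and TGF-β EVs had 13 to 24 (0.0821% to 0.159%). Neuronal precursors summed to 0 to 9 counts in LPS EVs and 0 to 6 in TGF-β EVs, and serum and red cell precursors to 0 to 2 and 0 to 3.

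Both kinds of EV were dominated by mir-6236, an entry listed by hand here among those taken to come from ribosomal or other structural RNA. It took 65.5%, 56.2% and 49.9% of the counts in LPS EVs and 79.0%, 70.4% and 70.7% in TGF-β EVs. All LPS EV libraries lay below all TGF-β EV libraries, with 57.2% ± 7.82 in LPS EVs and 73.4% ± 4.88 in TGF-β EVs (SD, n = 3 each), and untreated EVs had 74.5% ± 1.17 (SD, n = 3). The difference of -16.2 percentage points had an exact two-sided permutation p of 0.1, the smallest that 3 against 3 libraries allow. The entry mir-6240 took 4.24%, 3.26% and 4.66% in LPS EVs and 7.91%, 7.19% and 6.83% in TGF-β EVs. A different entry, mir-6238, took 6.65%, 12.8% and 8.96% in LPS EVs and 0.126%, 0.707% and 0.564% in TGF-β EVs. By share, the LPS EVs held less of mir-6236 and mir-6240 and more of mir-6238, with no overlap between the groups for any of the 3.

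The let-7 family, abundant microRNAs that restrain growth genes such as the Ras family, took a larger share in LPS EVs. Its 14 precursors took 7.68%, 11.2% and 12.4% of counts in LPS EVs and 3.38%, 3.39% and 3.39% in TGF-β EVs, against 4.36% ± 0.789 in untreated EVs (SD, n = 3). The LPS minus TGF-β difference was 7.03 percentage points (exact permutation p = 0.1, the smallest possible). Outside mir-6236 and mir-6240, let-7 took 25.4%, 27.7% and 27.2% of what was left in LPS EVs and 25.8%, 15.1% and 15.1% in TGF-β EVs. On that base the groups overlapped, because TGF-β EV library 1 lay among the LPS EV libraries. The counts outside mir-6236, mir-6240 and mir-6238 numbered 5662, 7965 and 9436 in LPS EVs and 2171, 3445 and 3296 in TGF-β EVs.

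**Figure D1:**
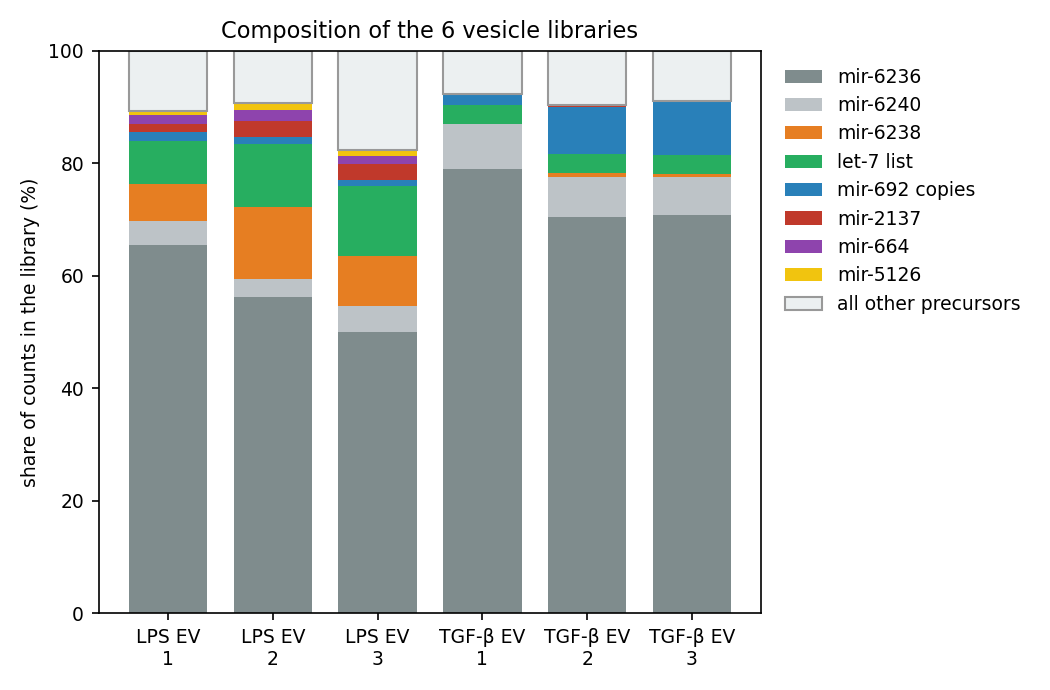
Share of all counts in each EV library, in percent, for mir-6236, mir-6240, mir-6238, let-7, the mir-692 copies, mir-2137, mir-664, mir-5126 and all other precursors, with the LPS EV libraries left of the TGF-β EV libraries. The mir-6236 share is 49.9% to 65.5% in LPS EVs and 70.4% to 79.0% in TGF-β EVs, and mir-6238 is 6.65% to 12.8% in LPS EVs and 0.126% to 0.707% in TGF-β EVs.

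More precursors were detected in LPS EVs. With at least 5 counts in a library, 121, 111 and 159 precursors were found in LPS EVs and 65, 89 and 69 in TGF-β EVs, and no libraries overlapped. Depth differed between the groups in the same direction, so the libraries were thinned to 15071 counts, the smallest total. LPS EVs then had 90, 75 and 119 precursors and TGF-β EVs had 61, 85 and 69, and the groups overlapped through LPS EV library 2. The thinned difference was 23 precursors (exact permutation p = 0.2), against 56 before thinning (exact permutation p = 0.1).

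With TMM scaling, which assumes that most precursors keep their level, edgeR's quasi-likelihood test called 22 of the 71 tested precursors (31%) at an adjusted p under 0.05. Of these 6 were higher in LPS EVs (8.45% of those tested) and 16 were lower (22.5%). When libraries were scaled by their total counts, 34 were called (47.9%), 24 higher (33.8%) and 10 lower (14.1%). The median log2 difference of all tested precursors was 0.26 with TMM and 1.61 with library totals. TMM factors were 1.52, 1.87 and 2.23 for LPS EVs and 0.648, 0.820 and 0.757 for TGF-β EVs. In all, 15 precursors (21.1%), 5 higher (7.04%) and 10 lower (14.1%), were called with TMM, with DESeq2's size factors and with library totals. By share of counts, the libraries of the groups did not overlap for 48 precursors (67.6%), of which 34 were above in LPS EVs (47.9%) and 14 below (19.7%). By normalised CPM, which divides counts by each library's TMM-scaled total, they did not overlap for 33 (46.5%), of which 15 were above (21.1%) and 18 below (25.4%).

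**Figure D2:**
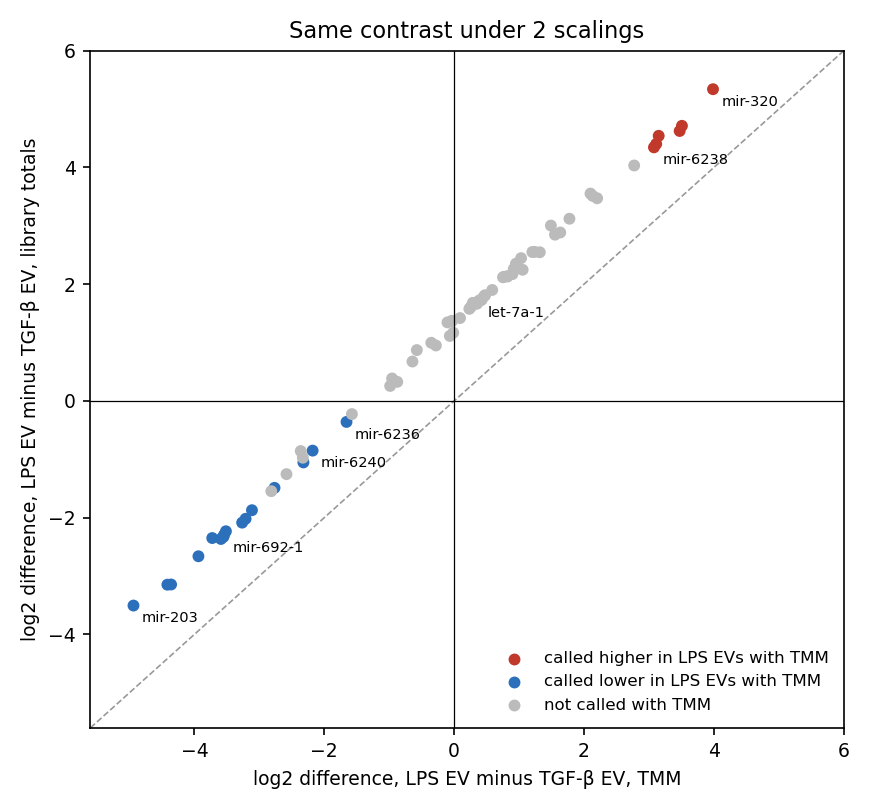
Log2 difference, LPS EVs minus TGF-β EVs, of the 71 tested precursors with TMM scaling (horizontal axis) against library totals (vertical axis), with called precursors marked. The medians of all precursors lie at 0.26 and 1.61, and the 22 precursors called with TMM keep their side of 0 under both scalings.

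The 5 precursors that were higher in LPS EVs under all 3 scalings were mir-2137, mir-664, mir-320, mir-5126 and mir-6238. Their log2 differences with TMM were 3.08 to 3.99, and those with library totals 4.35 to 5.34. For mir-2137 the LPS EV libraries had 348, 783 and 704 counts and the TGF-β EV libraries 22, 11 and 14. It averaged 12120 ± 2524 normalised CPM in LPS EVs and 1368 ± 603 in TGF-β EVs, and 2055 ± 943 in untreated EVs (SD, n = 3 each). The log2 difference was 3.15 ± 0.45 (SE, adjusted p = 0.000737, edgeR), and it was called under all 17 alternatives. With library totals it was 4.54.

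The entry mir-664, which overlaps a snoRNA, had 398, 590 and 385 counts in LPS EVs and 1, 26 and 4 in TGF-β EVs. Every LPS EV library was above every TGF-β EV library, although the TGF-β EV libraries differed widely among themselves. Its log2 difference was 3.51 ± 0.89 (SE, adjusted p = 0.00978, edgeR), also called under all 17 alternatives. The precursor of miR-320, which is made without the nuclear processing enzyme Drosha and is often reported in EVs, had 32, 97 and 94 counts in LPS EVs and 2, 1 and 0 in TGF-β EVs. Summed over libraries this was 223 counts against 3, a ratio of shares with a 95% counting interval of 15.2 to 220. Counting intervals and limits here pool the reads of a group and leave out the variation between libraries, so they are too narrow for a group difference. Its log2 difference was 3.99 ± 1.02 (SE, adjusted p = 0.00978, edgeR). The call was lost without LPS EV library 2 (adjusted p = 0.0660), LPS EV library 3 (0.0550), TGF-β EV library 2 (0.0639) or TGF-β EV library 3 (0.0542).

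For mir-5126, which consists of G and C alone, LPS EVs had 179, 353 and 277 counts and TGF-β EVs had 1, 6 and 15. The groups stood apart, and the log2 difference was 3.11 ± 0.83 (SE, adjusted p = 0.0119, edgeR). It was lost without LPS EV library 2 (adjusted p = 0.0578) or TGF-β EV library 2 (0.0553). In counts, mir-6238 was the largest of the 5, with 1592, 3676 and 2317 in LPS EVs and 21, 112 and 85 in TGF-β EVs. Its log2 difference was 3.08 ± 0.89 (SE, adjusted p = 0.0173, edgeR), and without LPS EV library 2 the adjusted p was 0.0595. Untreated EVs spread from 46 to 582 counts for mir-6238, so its level also varied without treatment.

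The sixth call, mir-1903, whose letters occur in an exon of Nrp1, rested on 33, 39 and 22 counts in LPS EVs and 0, 2 and 0 in TGF-β EVs. Its log2 difference was 3.47 ± 1.24 (SE, adjusted p = 0.0492, edgeR), and the ratio of summed shares had a 95% counting interval of 7.68 to 239. The call was lost under 10 of 16 alternatives, with DESeq2's size factors (adjusted p = 0.0549) and without LPS EV library 1 (0.159), 2 (0.138) or 3 (0.0731), TGF-β EV library 1 (0.146) or 3 (0.162), or IL-10 EV library 1 (0.0527) among them. Without TGF-β EV library 2, which held its only TGF-β EV counts, the log2 difference was 6.99.

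Of the 16 precursors lower in LPS EVs, the 3 mir-692 copies and mir-682 carry letters that also occur in other annotated transcripts. The copy mir-692-3 had 141, 152 and 118 counts in LPS EVs and 117, 544 and 570 in TGF-β EVs, with 23 to 149 in untreated EVs. TGF-β EV library 1 had fewer raw counts than every LPS EV library, whereas libraries 2 and 3 lay well above them; by share of counts all 3 lay above. Together the 3 copies took 1.43%, 1.23% and 1.21% of counts in LPS EVs and 1.75%, 8.44% and 9.33% in TGF-β EVs. The copies share 1 mature sequence and are not independent. Their log2 differences were -3.54 ± 0.69, -3.59 ± 0.71 and -3.55 ± 0.70 (SE, adjusted p = 0.00227 each, edgeR), and -2.29, -2.36 and -2.33 with library totals. For mir-682, LPS EVs had 65, 39 and 33 counts and TGF-β EVs had 31, 152 and 170. Again TGF-β EV library 1 was low, and by share of counts the groups overlapped. The log2 difference was -3.26 ± 0.62 (SE, adjusted p = 0.00227, edgeR) and held under all 17 alternatives.

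The epithelial microRNA precursor mir-203 had 12, 2 and 15 counts in LPS EVs and 158, 16 and 41 in TGF-β EVs, a log2 difference of -4.94 ± 0.91 (SE, adjusted p = 0.00227, edgeR). Untreated EVs had 16 to 22 counts, and the TGF-β EV libraries did not all exceed them. It was at 0 to 2 counts in LPS cells and at 0 in TGF-β cells. The muscle precursor mir-1a-1 had 5, 5 and 4 counts in LPS EVs and 6, 6 and 6 in TGF-β EVs, with 11 to 14 in untreated EVs. Its raw counts were nearly equal, and its log2 difference of -2.32 ± 0.65 (SE, adjusted p = 0.0152, edgeR) was not called with library totals (adjusted p = 0.205), nor with no filter on low counts (0.560), nor without LPS EV library 2 (0.0698), LPS EV library 3 (0.135) or TGF-β EV library 1 (0.0611). The whole list of liver, muscle and epithelium precursors summed to 13 to 22 counts in LPS EVs and 26 to 164 in TGF-β EVs, with 7 of its 17 members at 0. Only mir-203 and mir-1a-1 of this list could be tested. The part of RNA from other cells or from the medium in these 2 values was not tested.

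Both dominant entries were among the lower calls, and here the scaling set the size. For mir-6240 the LPS EV libraries had 1016, 936 and 1205 counts and the TGF-β EV libraries 1323, 1138 and 1030. The log2 difference was -2.18 ± 0.48 with TMM (SE, adjusted p = 0.00489, edgeR) and -0.85 with library totals (adjusted p = 0.0268). For mir-6236 the counts were 15673, 16150 and 12909 in LPS EVs and 13213, 11143 and 10660 in TGF-β EVs. Its log2 difference was -1.66 ± 0.50 with TMM (SE, adjusted p = 0.0208, edgeR) and -0.36 with library totals (adjusted p = 0.0364). The TMM call for mir-6236 was lost without LPS EV library 2 (adjusted p = 0.0813), LPS EV library 3 (0.177) or TGF-β EV library 1 (0.0898), and with no filter on low counts (0.163).

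Several of the other lower calls rested on few counts. The intronic entry mir-6345 had 5, 1 and 4 counts in LPS EVs and 21, 22 and 15 in TGF-β EVs, with a log2 difference of -4.42 ± 0.87 (SE). For mir-5108 there were 2, 6 and 17 counts in LPS EVs and 17, 43 and 18 in TGF-β EVs, with -3.72 ± 0.74 (SE). The adjusted p was 0.00227 for each (edgeR), and both were called under every alternative in which they were tested. The entry mir-1896, which lies in an exon of the long noncoding RNA 4930470G03Rik, had 180, 29 and 104 counts in LPS EVs and 263, 207 and 258 in TGF-β EVs. Its log2 difference was -3.11 ± 0.75 (SE, adjusted p = 0.00842, edgeR), and without LPS EV library 3 the adjusted p was 0.0551. In cells it had at most 2 counts per library in the LPS and TGF-β groups, so it was counted almost entirely in EVs.

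The calls for mir-3544, mir-7000, mir-3960, mir-5100 and mir-1931 were not made with library totals. Their largest count in any LPS EV library was 23 and in any TGF-β EV library 61, both for mir-7000. Their log2 differences were -2.77, -3.51, -3.94, -4.36 and -3.21, with adjusted p-values of 0.00978, 0.00978, 0.0105, 0.0238 and 0.0251 (edgeR). Without LPS EV library 3 the adjusted p was 0.0551 for mir-3544, 0.0696 for mir-7000, 0.0713 for mir-3960 and 0.106 for mir-5100. Without LPS EV library 2 it was 0.0660 for mir-3960 and 0.0811 for mir-5100, and without TGF-β EV library 2 it was 0.0536 for mir-5100. With no filter on low counts it was 0.248 for mir-3544 and 0.110 for mir-3960.

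**Figure D3:**
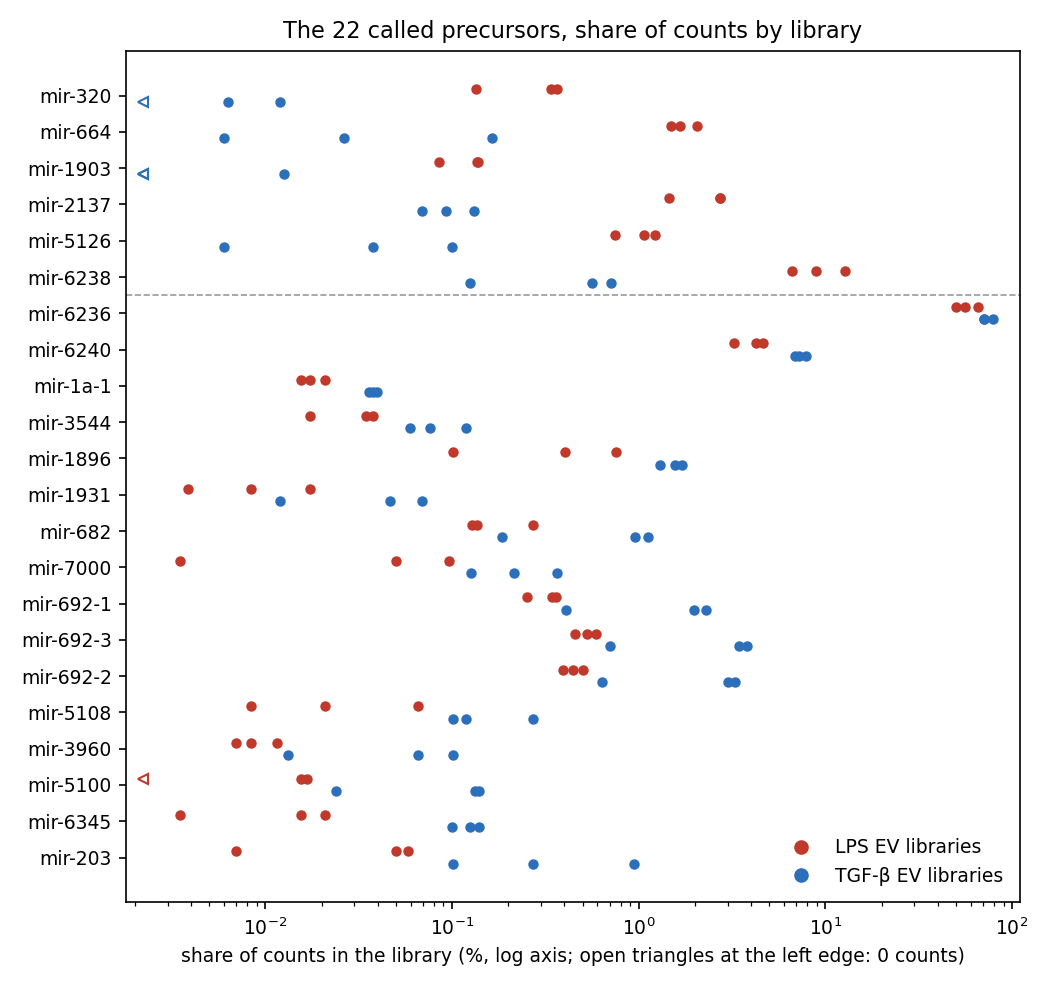
Share of all counts, in percent on a log axis, of the called precursors in each LPS EV library and each TGF-β EV library, 1 point per library, and open triangles at the left edge for libraries at 0. The LPS EV points lie above all TGF-β EV points for the 6 higher precursors, and below them for the lower ones except mir-682 and mir-1931, where the groups overlap.

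The NF-κB-driven precursors that LPS is known for were not called in EVs. mir-146a and mir-146b, whose products damp TLR4 signalling by targeting Irak1 and Traf6, had uneven counts. For mir-146a LPS EVs had 14, 103 and 85 counts and TGF-β EVs had 14, 1 and 0, so LPS EV library 1 and TGF-β EV library 1 held the same number. The log2 difference was 1.49 ± 1.34 (SE, adjusted p = 0.415, edgeR). It was 4.75 without TGF-β EV library 1 (adjusted p = 0.0611) and 0.70 without TGF-β EV library 3 (adjusted p = 0.689), so its size rests on single libraries although it was not called in any of these fits. For mir-146b LPS EVs had 3, 58 and 44 counts and TGF-β EVs had 4, 0 and 1, with 2.10 ± 1.62 (SE, adjusted p = 0.361, edgeR), which was 3.72 without TGF-β EV library 1 and 1.28 without TGF-β EV library 2. LPS EV library 1 was low for both and overlapped with the TGF-β EV libraries. mir-21a, a widely expressed precursor that both NF-κB and TGF-β signalling can raise, had 30, 13 and 54 counts in LPS EVs and 1, 4 and 3 in TGF-β EVs. Its groups stood apart by share, and its log2 difference was 1.55 ± 0.90 with TMM (SE, adjusted p = 0.231, edgeR) and 2.85 with library totals (adjusted p = 0.0364).

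Of the 16 precursors fixed by name, 7 had too few counts in EVs to be tested. The inflammatory precursor mir-155 had 0, 1 and 2 counts in LPS EVs and 0 in all TGF-β EVs. In the far deeper cell libraries it had 57 to 79 counts with LPS and 3 to 8 with TGF-β. mir-221 had 6, 5 and 17 counts in LPS EVs and 2, 1 and 1 in TGF-β EVs. Its cluster partner mir-222 had 11, 10 and 16 in LPS EVs and 2, 9 and 0 in TGF-β EVs. Both were higher by raw count in all LPS EV libraries, with no test, but for mir-222 the groups overlapped by share because TGF-β EV library 2 lay among the LPS EV libraries. mir-342 had 2, 0 and 1 counts in LPS EVs and 0, 0 and 5 in TGF-β EVs, and mir-223, mir-132 and mir-504 had none in either. At this depth 0 counts do not show that a microRNA is absent.

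None of the 10 tested let-7 precursors was called with TMM by edgeR, 0 had an unadjusted p under 0.05, and DESeq2's Wald test also called 0. The family's median log2 difference was 0.17, beside 0.26 over all tested precursors. let-7a-1 had 401, 737 and 664 counts in LPS EVs and 95, 120 and 112 in TGF-β EVs. Every LPS EV library was above every TGF-β EV library, and the log2 difference was 0.38 ± 0.26 with TMM (SE, adjusted p = 0.307, edgeR) and 1.72 with library totals (adjusted p = 0.0264). let-7a-2 gave nearly the same counts as let-7a-1, and both precursors yield the same main mature form, so their reads could not be told apart. let-7b had 54, 124 and 153 counts in LPS EVs and 62, 26 and 22 in TGF-β EVs, and its log2 difference was -0.57 ± 0.48 with TMM and 0.87 with library totals (SE; neither called). With library totals 4 of the 10 were higher and none lower, and the family median was 1.52, beside 1.61 over all.

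Most other microRNA lists had no call with TMM. Their counts with library totals stand beside 33.8% called higher, and a median of 1.61, over all 71 tested precursors with that scaling, and beside 8.45% called higher and a median of 0.26 with TMM. In the lists with no edgeR call below, DESeq2's Wald test also called 0, and mir-93 alone had an unadjusted p under 0.05 (edgeR). Of the miR-23/27/24 clusters 4 precursors were tested, none called with TMM (median 0.62) and all 4 higher with library totals (median 1.93). mir-23a, the largest, had 117, 127 and 177 counts in LPS EVs and 18, 26 and 32 in TGF-β EVs, and the groups stood apart by share of counts. mir-24-2 had 68, 72 and 143 counts in LPS EVs and 2, 13 and 23 in TGF-β EVs. mir-24-1 gave nearly the same counts, and both copies yield miR-24-3p. mir-23b ran close to mir-23a, with 113, 116 and 157 counts in LPS EVs and 17, 25 and 28 in TGF-β EVs. The 4 precursors are therefore not independent results. In the miR-17-92 family and its paralogs, which promote proliferation, 4 were tested and none called with TMM (median 0.76), and 2 were higher with library totals. One of them, mir-93, had 15, 23 and 24 counts in LPS EVs and 1, 1 and 0 in TGF-β EVs, a log2 difference of 2.77 ± 1.05 (SE, adjusted p = 0.0651, edgeR). mir-25 had 59, 64 and 168 counts in LPS EVs and 17, 19 and 19 in TGF-β EVs.

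Among 4 tested precursors of the TGF-β-responsive list (median 0.71) and 2 of the anti-inflammatory list (median 1.85), none was called with TMM, and 3 and 0 were higher with library totals. The TLR4 and NF-κB list had 3 tested members (median 1.55), none called with TMM and 1 with library totals. In the second list of precursors raised by LPS in macrophages, mir-29a and let-7e were tested (median 0.95), and only mir-29a was called, with library totals. It had 31, 10 and 34 counts in LPS EVs and 1, 2 and 3 in TGF-β EVs. Of the myeloid list 4 were tested (median 1.20), none called with TMM and 2 higher with library totals. mir-142a, a precursor restricted to blood-forming lineages, had 47, 30 and 76 counts in LPS EVs and 5, 8 and 16 in TGF-β EVs, with a log2 difference of 0.35 ± 0.65 (SE, adjusted p = 0.684, edgeR). In the list of precursors often reported in EVs, mir-320 was the 1 call among 5 tested. The miR-15/16 and miR-30 families had no tested member. In the Sfmbt2 intronic cluster, which holds many near-identical copies, only mir-669c of 82 precursors passed the filter. The cluster summed to 225 to 561 counts in LPS EVs (0.94% to 2.17%) and 25 to 59 in TGF-β EVs (0.15% to 0.37%). The groups did not overlap, beside 47.9% of all 71 tested precursors that lay wholly above in LPS EVs by share. For mir-669c itself the log2 difference was -0.98 ± 1.05 with TMM (SE, adjusted p = 0.4995, edgeR) and 0.26 with library totals, so the tested member did not follow the summed counts.

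The hand-made list of entries taken here to come from ribosomal RNA, tRNA or snoRNA moved in both directions. It was chosen with earlier results of these data known, so its calls are a description and not a test of the list. Of its 10 tested members, 4 were higher (mir-664, mir-2137, mir-5126, mir-6238) and 3 lower (mir-6236, mir-6240, mir-5100) in LPS EVs, beside 8.45% higher and 22.5% lower over all 71 tested. Its share of all counts was 80.5%, 78.5% and 69.2% in LPS EVs and 87.3%, 79.0% and 78.7% in TGF-β EVs, and the groups overlapped. Leaving mir-6236 and mir-6240 out of the counts, the list took 35.7%, 46.9% and 32.1% in LPS EVs and 2.97%, 6.27% and 5.03% in TGF-β EVs, so the sign of the difference turned. Only 2 of its 9 members with a sequence, mir-664 and mir-1839, overlapped a snoRNA or scaRNA gene of the annotation. By annotation alone, in a set formed after the values were seen, 12 tested precursors overlapped a snoRNA or scaRNA gene on the same strand. Their median log2 difference was 1.04 with TMM and 2.35 with library totals, beside 0.26 and 1.61 over all tested. With TMM 1 was called higher and 0 lower, beside 8.45% and 22.5% over all tested. With library totals 6 were called higher, beside 33.8% over all tested. In this set mir-677 had 64, 54 and 108 counts in LPS EVs and 4, 8 and 11 in TGF-β EVs. mir-1843b had 63, 68 and 203 counts in LPS EVs and 1, 1 and 15 in TGF-β EVs. Neither was called with TMM (adjusted p = 0.105 for mir-677 and 0.137 for mir-1843b, edgeR). By share neither overlapped between the groups, as for 67.6% of all tested precursors, and by normalised CPM mir-1843b did overlap.

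Among the 492 untested precursors, 25 had counts in all 3 LPS EV libraries and none in TGF-β EVs, and 1 showed the reverse. Most of the 25 belong to the miR-297, miR-466, miR-467 and miR-669 series, which holds many near-identical copies, so they are not independent. The largest of the 25 was mir-7033, with 9, 37 and 21 counts in LPS EVs and 0 in TGF-β EVs. With TGF-β EVs set at a floor of 3 counts over the group, the ratio of shares was 13.5. The lower 95% counting limit, which takes the 0 as counted, was 10.7. mir-6538 had 7, 17 and 31 counts, mir-466d had 5, 20 and 25 and mir-466h had 3, 17 and 16, all with 0 in TGF-β EVs. On the same floor their ratios were 11.1, 10.1 and 7.28, with lower 95% counting limits of 8.74, 7.92 and 5.62. mir-7033 and mir-6538 were also nearly confined to the LPS group in cells, with 25 to 58 and 21 to 39 counts in LPS cells and at most 3 in TGF-β cells. mir-466d differed in this, with 92 to 122 counts in LPS cells and 156 to 213 in the deeper TGF-β cell libraries. Scaled by TMM, its log2 difference in cells was 0.04 and was not called (adjusted p = 0.871, edgeR). mir-378c had 9, 17 and 22 counts in LPS EVs and 0, 1 and 0 in TGF-β EVs, a ratio of 29.1 with a 95% counting interval of 4.98 to 1174. The reverse pattern was mir-7674, with 0 counts in LPS EVs and 2, 3 and 3 in TGF-β EVs. The LPS EV libraries were also deeper, and the part of depth in these counts was not tested.

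In the cells that shed these EVs, the LPS against TGF-β contrast called 83 of 259 precursors (32%), beside 31% in EVs. Of these, 47 were higher (18.1%) and 36 lower (13.9%). Among the 58 precursors tested in both EVs and cells, 16 had a called difference between the EV and cell contrasts. For the NF-κB-driven precursors the differences in cells were 5.35 ± 0.18 for mir-146a, 4.20 ± 0.17 for mir-146b and 3.05 ± 0.15 for mir-21a (log2 ± SE, all called by edgeR). For mir-146a the EV difference minus the cell difference was -3.42 ± 1.23 (SE, adjusted p = 0.0667, edgeR) and missed the threshold, so the smaller EV difference was not shown to differ from that in cells. mir-320 was called higher in both, with 3.99 ± 1.02 in EVs and 3.07 ± 0.19 in cells (log2 ± SE), and the difference between them was not called (adjusted p = 0.368, edgeR).

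A direct test of the EV contrast against the cell contrast called 34 of 280 precursors (12.1%), 18 higher in EVs (6.43%) and 16 lower (5.71%). This balance moved with the scaling, since DESeq2's size factors left 4 higher calls and 27 lower ones, while library totals made 82 higher calls and 9 lower ones. The dominant entries reversed: mir-6240 was lower with LPS in EVs (-2.18 ± 0.48) and higher with LPS in cells (1.87 ± 0.14), a difference of -3.79 ± 0.49 (log2, SE, adjusted p = 1.02e-05, edgeR). mir-6236 was likewise lower in LPS EVs (-1.66 ± 0.50) and higher in LPS cells (1.31 ± 0.15), and its difference was -2.67 ± 0.45 (SE, adjusted p = 0.000419, edgeR). In cells these entries were minor, with mir-6236 at 1.25% to 1.63% of counts in LPS cells and 0.631% to 0.794% in TGF-β cells. The mir-692 copies did not pass the test in cells (adjusted p of 0.263 to 0.639, edgeR), and their differences were -3.50, -3.30 and -3.27 (adjusted p of 0.00228, 0.00417 and 0.00417).

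On the other side, mir-5126 had 3.11 ± 0.83 in EVs and -0.45 ± 0.18 in cells (SE, adjusted p = 0.0528 in cells, edgeR), an EV-minus-cell difference of 3.97 ± 0.73 (SE, adjusted p = 0.00103, edgeR). In LPS cells it had 625 to 663 raw counts and in TGF-β cells 1325 to 1798, but the TGF-β cell libraries were deeper. mir-2137 was higher with LPS by 3.15 ± 0.45 in EVs and by 0.93 ± 0.17 in cells, a difference of 2.57 ± 0.58 (SE, adjusted p = 0.00417, edgeR). mir-93 had 2.77 ± 1.05 in EVs, not called, and was lower in LPS cells (-0.48 ± 0.14), and its EV-minus-cell difference was 3.68 ± 0.81 (SE, adjusted p = 0.00417, edgeR). mir-744 had 3, 5 and 10 counts in LPS EVs and 0, 1 and 0 in TGF-β EVs, and was lower in LPS cells (-1.23). Its difference was 3.62 ± 0.95 (SE, adjusted p = 0.0137, edgeR), and with DESeq2's size factors the adjusted p was 0.0848. It was 10.67 without TGF-β EV library 2, which held the only TGF-β EV count, so its size rests on that count. The fitted difference of 10.96 for mir-466d is no bound, since all TGF-β EV libraries were at 0. The median of the EV-minus-cell differences over all 280 was 0.46 with TMM, -0.24 with DESeq2's size factors and 1.70 with library totals. All 10 named here kept their sign under each of these scalings.

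**Figure D4:**
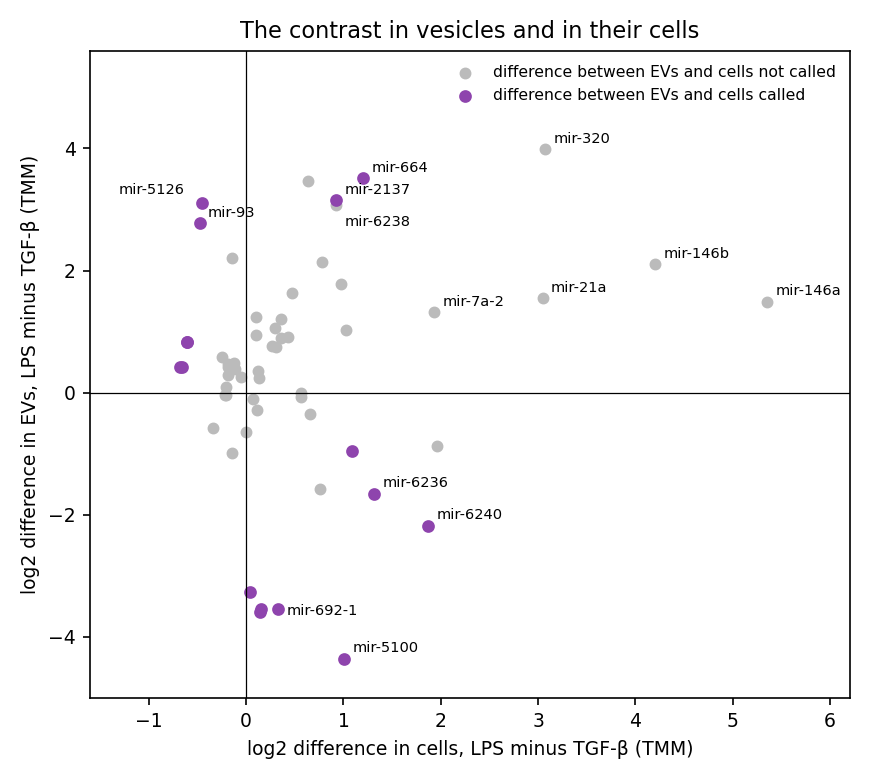
Log2 difference, LPS minus TGF-β, in cells (horizontal axis) and in EVs (vertical axis) for the precursors tested in both, with those whose 2 differences were themselves called different marked. mir-146a, mir-146b and mir-21a lie far to the right at 5.35, 4.20 and 3.05, and mir-6240 and mir-6236 lie below 0 in EVs and to the right of 0 in cells.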

How the data were processed

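Small RNA from BV2 cells and their EVs was sequenced in 24 libraries. Per the labels' protocols, EV RNA came from 20 µL of EV fraction with a miRNeasy kit, the SMARTer smRNA-seq kit was used for library preparation with 18 cycles of PCR, and sequencing was on a HiSeq X. The deposited values used here are whole-number counts of reads per precursor. The LPS columns were labelled as raw counts and the TGF-β columns as processed data, so this label coincided with treatment in the contrast. What processing the second label refers to is not given. Which aligner, genome build, annotation and filters made them is not given in the sources used here. DESeq2 is named without a version per the submitters' processing notes. Among the 8 deposited files, 6 were used, 2 held the same values as a used one, and 12 repeated control columns were not used. Column names give a group and a number but not which sample.

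edgeR 4.0.16, limma 3.58.1 and DESeq2 1.42.0 were run in R 4.3.3. Counts were filtered with filterByExpr (minimum count of 10), scaled by TMM and fitted over the 12 EV libraries (8 residual degrees of freedom). The two-sided quasi-likelihood F test was adjusted by Benjamini-Hochberg over all tested precursors. The EV-minus-cell difference came from 1 fit over 24 libraries (16 residual degrees of freedom). The test was also run on simulated counts, with the same spread for all precursors and random changes in both directions around a shared composition. Those settings do not cover the uneven replicates or the shift in composition seen here, so nothing is concluded from that run. SEs come from the F statistic. Shares were compared by exact permutation.

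Named precursors were the 15 called with the smallest p in each direction, 16 fixed precursors, up to 4 tested members of each of 16 lists, and 5 per direction for the EV-minus-cell test; mir-1931, mir-7033 and the others outside this rule were chosen after their values were seen. Members and lists were chosen with earlier results of these data known. Mature sequences are from RefSeq and gene overlaps from the GENCODE annotation of the same assembly. Replicate counts differed by more than sampling noise in every pair (chi-square per degree of freedom between 5.18 and 25.7), so no library was treated as a duplicate.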

Additional observations from a re-analysis of the deposited data

Results flagged for a closer look

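The precursors below were singled out because the LPS minus TGF-β difference in EVs differed, by a direct edgeR test over 24 libraries, from the same difference in cells. All values are the EV log2 difference minus the cell log2 difference, ± SE. Positive were mir-5126 at 3.97 ± 0.73, mir-93 at 3.68 ± 0.81, mir-744 at 3.62 ± 0.95, mir-664 at 2.70 ± 0.83 and mir-2137 at 2.57 ± 0.58. For mir-466d the fitted value was 10.96 ± 2.63, which depends on a group at 0. In all, 4 members of the miR-23/27/24 clusters were also positive: mir-24-2 at 1.73 ± 0.50, mir-24-1 at 1.73 ± 0.50, mir-23b at 1.43 ± 0.42 and mir-23a at 1.41 ± 0.39. Each of these 4 was not called in EVs with TMM and was lower in LPS cells than in TGF-β cells, with log2 differences of -0.61 to -0.68. They are not independent, since mir-24-1 and mir-24-2 share a mature form and mir-23a and mir-23b had similar counts.

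Negative were mir-5100 at -5.22 ± 1.23, mir-6240 at -3.79 ± 0.49, mir-692-1 at -3.50 ± 0.69, mir-692-2 at -3.30 ± 0.72, mir-692-3 at -3.27 ± 0.71, mir-682 at -2.95 ± 0.65 and mir-6236 at -2.67 ± 0.45. All 17 kept their sign with library totals and with DESeq2's size factors. With library totals mir-682 was no longer called (adjusted p = 0.0660, edgeR). With DESeq2's size factors 6 of the 10 positive ones were no longer called: mir-744 (adjusted p = 0.0848), mir-664 (0.104), mir-24-2 and mir-24-1 (0.218 each), mir-23a (0.255) and mir-23b (0.264), all by edgeR. The cause of these differences was not tested.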

How the results depend on the processing

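The EV contrast was recomputed under 17 alternatives. The 22 calls (6 higher, 16 lower) became 34 (24 and 10) with library totals, of which 16 were shared. With a mean of at least 50 counts required, 28 precursors were tested and 12 were called, 8 of them lower and 11 of them shared. Once mir-6236 and mir-6240 were dropped from the table, the fit called 31, 16 of them higher. Leaving out 1 library let more precursors pass the filter, with 85 to 91 tested beside 71 in the main fit. It gave 13 to 21 calls, 2 to 5 higher and 9 to 16 lower. There were 13 of 88 without LPS EV library 2 and 13 of 85 without LPS EV library 3. DESeq2's size factors gave 21 and its Wald test 24, and without a filter on low counts 17 of 698 were called, 16 of them shared, with mir-6236, mir-1a-1, mir-3544, mir-3960 and mir-1903 among those lost. For the EV-minus-cell test, with 34 calls (18 and 16), DESeq2's size factors left 4 higher calls and 27 lower ones, and library totals made 91 (82 and 9). Leaving out 1 EV library gave 36 to 55 calls, 19 to 39 higher and 11 to 18 lower, with 55 without LPS EV library 1. These fits tested 333 to 339 precursors, beside 280 in the main fit, so the numbers of calls do not compare directly.

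A few values changed sign: let-7b was 0.87 with library totals, 0.0101 without a filter on low counts and -1.0309 to 0.0728 when 1 library was left out (positive without TGF-β EV library 1), let-7e was -0.0968 to 0.4621 when 1 library was left out (negative without TGF-β EV library 2), mir-669c was 0.26 with library totals, and the list of structural RNA entries differed by 33.5 percentage points once mir-6236 and mir-6240 were left out of the counts. The cause was not tested. Of the values of single precursors under alternatives, 755 kept their direction and their side of the threshold, 42 lost the call, 20 gained it and 5 changed sign.

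The main fit did not pair the libraries by column number. Deviations of same-numbered LPS and TGF-β EV columns correlated at -0.233, -0.00692 and -0.0606, and those of differently numbered columns at -0.178 to 0.202. With 3 columns per group, these values cannot show whether columns were prepared together. With the replicate block 21 were called, all among the 22, and mir-6236 was not (adjusted p = 0.0586, edgeR). Leaving out 1 library ended calls at low and at high counts, mir-6236 and mir-6238 among them.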
